A study of Arabidopsis thaliana with 6 samples.

Results

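The loci numbered AT5G28000 to AT5G36999 surround the centromere of chromosome 5 in Arabidopsis. They were taken as every identifier of the gene count table that falls in this number range, which gave 633 loci of the 26764 in the table. Transcript levels were measured by RNA-seq of 3-week-old Col-0 seedlings grown on agar plates under long days, in wild type (wt) and in the triple mutant *h1.1-1h1.2-2h1.3-2* (*3h1*), which carries T-DNA insertion alleles in all 3 genes for linker histone H1. Each genotype was represented by 3 biological replicates, each made from pooled seedlings, and *3h1* is a single combination of alleles. The *h1.3* allele came from the L*er* strain, and the authors state that some L*er* sequence remained in *3h1* after backcrossing, mainly near H1.3. Whether any of it lies in this region was not tested. The question addressed was whether transcription from this repeat-rich region differed when H1 was missing.

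Pericentromeric heterochromatin flanks the satellite arrays of each centromere and is packed with transposons and their degenerate remains, interspersed with a minority of working genes. In Arabidopsis nuclei it gathers into compact bodies called chromocenters, where DNA methylation and histone H3 lysine methylation keep transposons silent. Linker histone H1 binds the DNA that enters and leaves the nucleosome and contributes to the compaction of such chromatin.

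In the TAIR10.1 assembly (RefSeq), the 633 loci ran from base 10024623 to base 14607754 of chromosome 5, a span of 4.58 Mb. The annotation classes 385 of them as pseudogenes, 206 as protein-coding genes, 35 as transcribed pseudogenes and 7 as non-coding RNA or tRNA genes. Many of the pseudogenes carry no product name, and the annotation used here does not mark transposable element genes. The centromere itself is visible in the sequence as a tandem satellite with a 178-base unit. In 20 bins of 10 kb, more than 40% of the bases matched the base 1 unit further on, against a median of 27.4% over all bins of the chromosome, and these bins lay between bases 11660001 and 12070000. The centre of that interval, base 11865000, was used as the origin for distances. Adjacent units of this satellite are shown here because they mark that origin. The pair is the most alike among units read in step through the bin with the most such matches. It lies at chr5:12052671-12052848 and chr5:12052849-12053026 on the plus strand, and capitals mark the 19 of 178 bases at which they differ.
Satellite copy 1: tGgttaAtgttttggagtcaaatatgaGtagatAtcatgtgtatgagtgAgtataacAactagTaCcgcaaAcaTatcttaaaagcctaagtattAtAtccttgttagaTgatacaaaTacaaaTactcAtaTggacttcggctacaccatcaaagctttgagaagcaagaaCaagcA
Satellite copy 2: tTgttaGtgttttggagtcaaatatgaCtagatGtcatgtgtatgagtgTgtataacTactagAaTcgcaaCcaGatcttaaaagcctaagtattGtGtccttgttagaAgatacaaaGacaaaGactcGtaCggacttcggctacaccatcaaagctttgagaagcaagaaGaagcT

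Pseudogenes dominated the loci next to the satellite, and protein-coding genes became common towards the arms. Of the 128 loci within 0.5 Mb of the origin 10 were protein-coding, compared with 70 of the 106 loci further than 2 Mb away. Locus numbers followed position only roughly, since the start moved backwards between adjacent numbers 37 times.

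Much of the region is repeated, and this bears on how reads could be assigned. The authors' quantitation divided each read that mapped equally well to several places between those places, so that a divided count is not a whole number. Every exon base of a locus was therefore checked for whether the 100-base word centred on it occurs only once in the nuclear genome. In 453 loci at least 99% of the words were unique, while in 37 loci fewer than 50% were. Counts deviated from a whole number by more than 0.001 in at least 1 library for 516 loci, and in all 6 libraries for 37.

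The libraries held between 4753812 and 6174881 counts in all, of which from 1846022 to 2877178 fell on nuclear genes. The mutated genes were low where the labels predicted it. H1.1 (AT1G06760) had counts of 416, 414 and 349 in wt, by replicate number, and of 84, 104 and 120 in *3h1*. H1.2 (AT2G30620) had 420, 350 and 420 counts in wt and 86, 76 and 87.9 in *3h1*, and H1.3 was not analysed here. Shoot markers were abundant in every library, with at least 6161 counts for RBCS1A and 2197 for CA1, whereas the root markers CASP1 and AT5G49270, the floral markers AP1 and AG and the seed storage marker CRA1 had at most 15.1 counts in any library. *3h1* replicates 1 and 3 stood apart from the other 4 libraries. In these libraries 94.0 and 96.7% of the nuclear genes outside the region had at least 3 counts, compared with 78.5 to 85.4% in the 3 wt libraries and 80.9% in *3h1* replicate 2.

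The same contrast was seen within the region. At least 3 counts were recorded for 418, 351 and 343 of the 633 loci in the wt libraries, by replicate number, and for 549, 357 and 576 in the mutant. *3h1* replicate 2 thus lay within the range of the wt libraries, and the difference between the means of 123.3 loci was not separable from the spread between replicates (exact two-sided permutation test, p = 0.2, where 3 against 3 libraries cannot go below 0.1). The share of loci with a fractional count was likewise highest in *3h1* replicates 1 and 3, with 33.3, 22.8 and 25.4% in wt and 44.4, 25.9 and 58.3% in *3h1*. What part this difference between libraries had in the results that follow was not tested. With *3h1* replicate 2 as the only mutant library, the difference was -13.67 loci. No count was recorded in any wt library for 17 loci, whose counts summed over the 3 *3h1* libraries ranged from 2 to 27, and no locus was at 0 in all 3 *3h1* libraries.

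**Figure D1:**
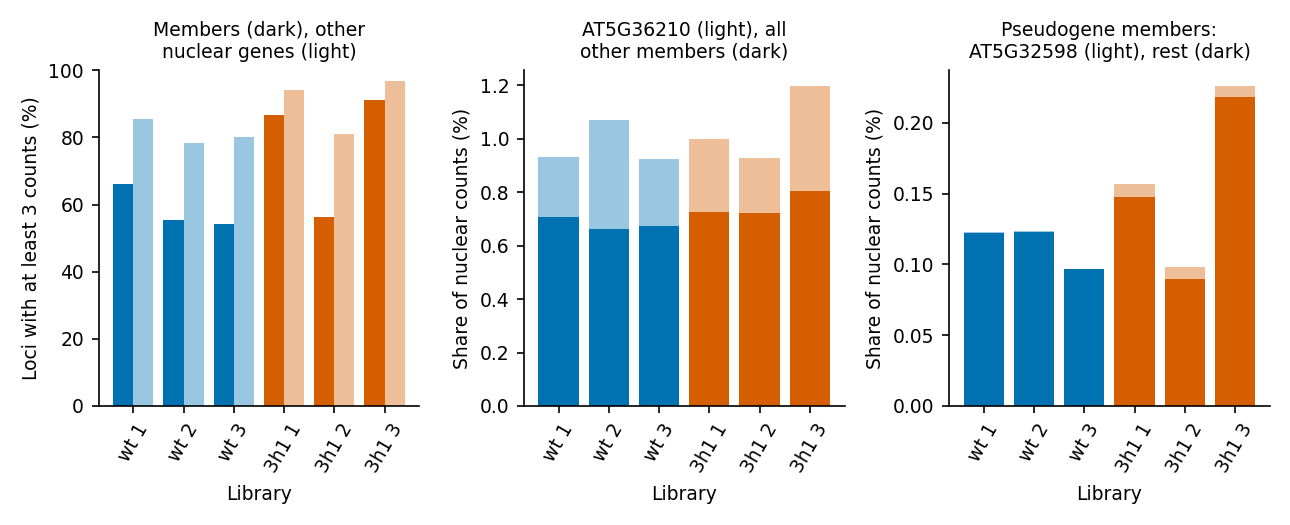
Bars for each of the 3 wt (blue) and 3 *3h1* (orange) libraries. Left, the percentage of the 633 loci (Members, dark) and of the other nuclear genes (light) with at least 3 counts. Middle, the share of nuclear counts in percent on AT5G36210 (light) and on all other loci of the region (dark). Right, the share on its pseudogenes, with AT5G32598 in light. In the left and right panels *3h1* replicate 2 lies among the wt libraries, and *3h1* replicates 1 and 3 lie above all of them.

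The summed transcript level of the region did not separate the genotypes. The 633 loci took 0.932, 1.07 and 0.924% of the nuclear counts in wt against 1.00, 0.930 and 1.197% in *3h1*, a difference of 0.0676 percentage points (exact permutation test, p = 0.6). A large part of this sum came from the single gene AT5G36210, which encodes a hydrolase of the alpha/beta fold and had 5758, 7536 and 5471 counts in wt and 7883, 4753 and 10943 in *3h1*. Its values overlapped between the genotypes. Without it the share was 0.709, 0.661 and 0.672% in wt and 0.727, 0.721 and 0.805% in *3h1*, and the groups did not overlap (exact permutation test, p = 0.1, the smallest possible).

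Pseudogenes took a small part of the counts. Their share of the nuclear counts was 0.123, 0.123 and 0.0969% in wt and 0.157, 0.0980 and 0.226% in *3h1* (exact permutation test, p = 0.3), again with *3h1* replicate 2 among the wt values. For the 35 transcribed pseudogenes it was 0.00995, 0.00903 and 0.00825% in wt and 0.0118, 0.0109 and 0.0167% in *3h1* (exact permutation test, p = 0.1), with no overlap. With 11 quantities compared library by library, no adjusted p could fall below 0.1. In bulk RNA, a change in the number of cells that transcribe a locus and a change per cell cannot be told apart.

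Single loci were compared with edgeR's quasi-likelihood test on the whole table. A locus was tested when it reached the equivalent of 10 counts in the median library in at least 3 libraries, and 197 of the 633 loci did so, compared with 17453 genes in the whole table. The tested loci comprised 115 protein-coding genes, 73 pseudogenes, 7 transcribed pseudogenes and 2 non-coding RNA genes. The 436 loci left out had a median of 22 counts summed over the 6 libraries. The minimum was reached in all 6 libraries by 122 loci, and 31 reached it in *3h1* replicates 1 and 3 but not in *3h1* replicate 2, so a count over tested loci is not one over the region.

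After Benjamini-Hochberg adjustment over all genes, 1 locus passed the threshold of 0.05, where 0.0401% of all tested genes did. This was the pseudogene AT5G32598. With the thresholds the study states, an unadjusted p under 0.05 and a fold change over 2, 11 loci rose in *3h1*, which is 5.58% of those tested against 2.63% of all tested genes. In the other direction 3 loci fell, or 1.52% against 0.435%. Of the 14 loci that passed, 13 are annotated as pseudogenes and 1 is protein-coding. Among the 73 tested pseudogenes of the region 13.7% rose and 4.11% fell, beside 15.6 and 1.95% of the 411 pseudogenes tested elsewhere in the nuclear genome. These counts depended on single libraries. Without *3h1* replicate 2, 56 loci rose, 22% of those tested against 6.66% of all tested genes. In that fit 5 of 255 tested loci fell, against 0.709% of all tested genes. Without *3h1* replicate 3, 4 rose, 2.02% against 1.55%, and 6 of 198 fell, against 0.692% of all tested genes. Without wt replicate 2, 20 rose, 7.78% against 3.45%. With *3h1* replicate 2 as the only mutant library, the median log2 fold change was -0.085, against -0.021 over all tested genes.

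Loci that rose were found on both sides of the satellite. Within 0.5 Mb of the origin 3 of 21 tested loci rose, between 0.5 and 1 Mb 3 of 36, between 1 and 2 Mb 5 of 97, and beyond 2 Mb 0 of 43. The loci that fell numbered 0, 2, 1 and 0 in these bands. The shares that rose were 14.29, 8.333, 5.155 and 0%, beside 2.63% of all tested genes, of which 0.435% fell. The median log2 fold change in these distance bands was 0.34, 0.18, 0.12 and -0.07. In *3h1* replicate 2 alone, against the wt mean, it was -0.10, -0.16, 0.04 and -0.08, so the order by distance was not seen in that library. Over all 197 tested loci it was 0.11, compared with 0.01 over all tested genes. Taken for each mutant library against the wt mean, it was 0.09, -0.02 and 0.31 in *3h1* replicates 1, 2 and 3. Matching number ranges were taken around the centromeres of chromosome 1 (AT1G35000 to AT1G47999) and chromosome 3 (AT3G30000 to AT3G43999). Their medians were 0.11 over 224 and 0.35 over 158 tested loci. In them 10 and 23 loci rose, 4.46 and 14.56% of those tested, beside 5.58% in the region studied here. The remaining loci of chromosome 5 had a median of 0.02 over 3982 tested.

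**Figure D2:**
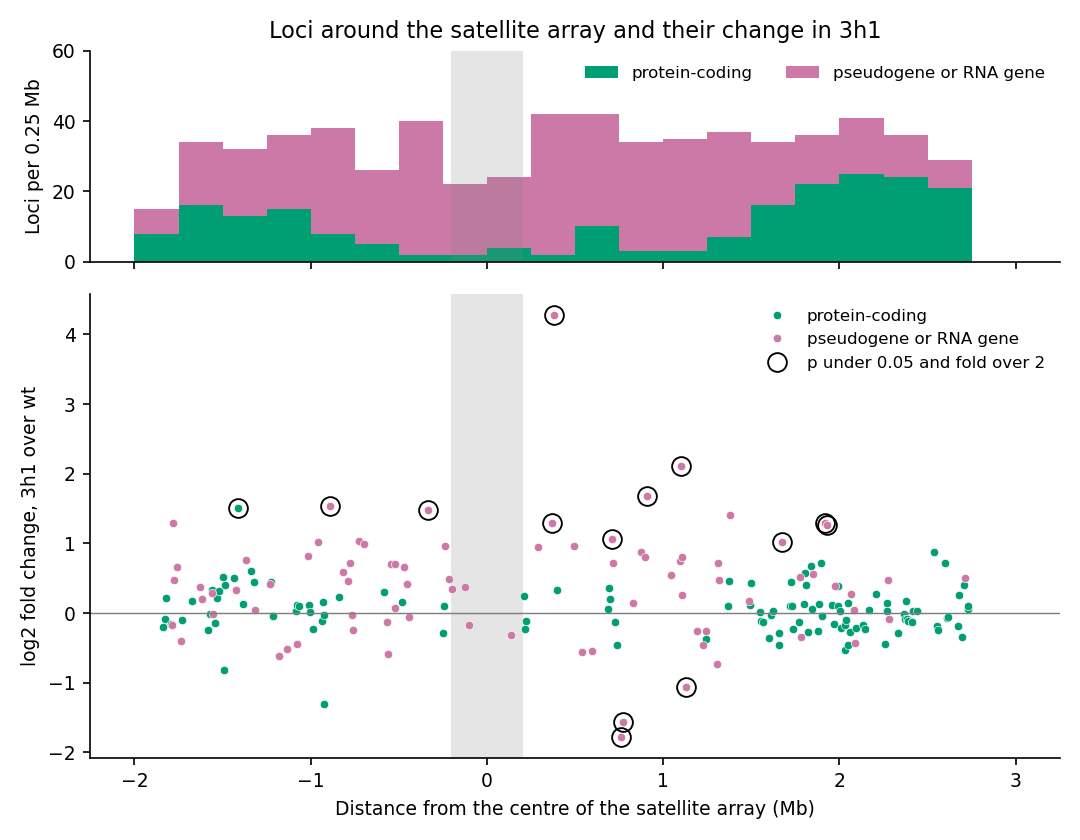
Loci by distance in Mb from the centre of the satellite array (grey band), as the number per 0.25 Mb by annotated class (top) and as the log2 fold change of *3h1* over wt for the 197 tested loci (bottom). Circles mark the 14 loci past both thresholds, and AT5G32598 stands highest at a log2 fold change of 4.28.

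AT5G32598 had the largest log2 fold change of the 197 tested loci. It is a pseudogene of 4410 bases with 1 exon, at chr5:12245006-12249415 on the plus strand, 0.382 Mb from the origin. Its counts were 19.8, 2.79 and 4.03 in wt, by replicate number, against 254.9, 185.5 and 205.5 in *3h1*. Every mutant library, including *3h1* replicate 2, was far above every wt library. As CPM, the count scaled to library size after TMM normalization, the mean was 1.59 ± 1.44 (SD, n = 3) in wt and 34.5 ± 3.64 (SD, n = 3) in *3h1*, and the fitted log2 fold change was 4.28 ± 0.35 (SE), equivalent to 19.4-fold (edgeR, adjusted p = 0.000603). Without wt replicate 1, which held most of its wt counts, the log2 fold change was 5.42, and over all alternatives it ranged from 3.93 to that value. All of its 100-base words were unique in the genome. Its counts were nevertheless not whole numbers in any library, so some of its reads were divided with other places.

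Counts of its neighbours were also taken. Within 50 kb of AT5G32598 the table holds 17 other loci, which together had 88.8, 104.4 and 87.7 counts in wt and 174.2, 99.3 and 312 in *3h1*, so that *3h1* replicate 2 lay among the wt values. The neighbour AT5G32596, which ends 0.53 kb before it, had 6.74, 7 and 9 counts in wt and 9, 11 and 15.8 in *3h1*. On the other side AT5G32600, which starts 0.28 kb after it, had 5, 1 and 4 counts in wt and 9.82, 3.53 and 13 in *3h1*. Only 2 of the 17 had enough counts to be tested. The protein-coding AT5G32613 had a log2 fold change of 0.33 and did not pass, while the pseudogene AT5G32593 rose.

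**Figure D3:**
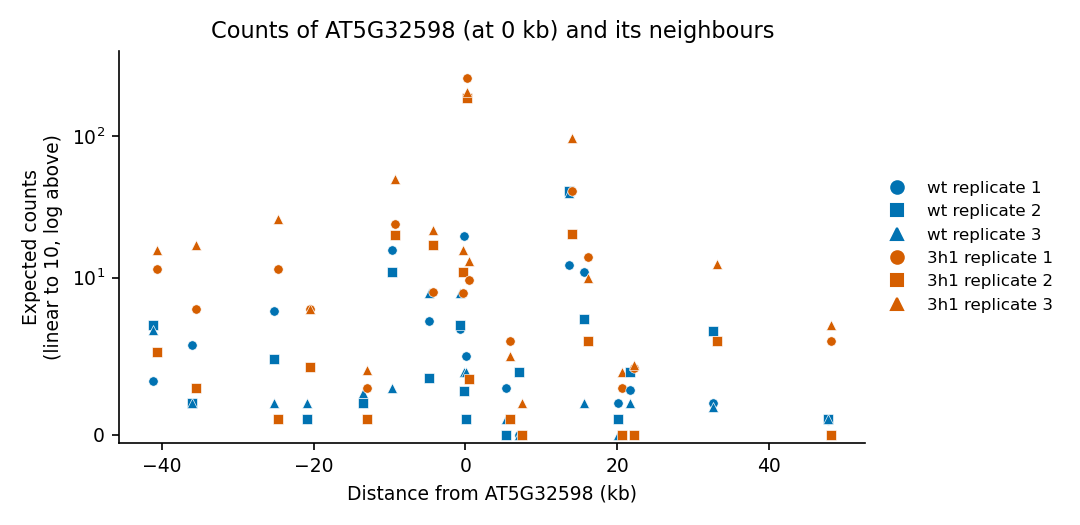
Expected counts of AT5G32598 (at 0 kb) and of the 17 other loci of the table within 50 kb, by distance from it in kb, on an axis that is linear to 10 and logarithmic above. Points are single libraries of wt (blue) and *3h1* (orange), with the shape giving the replicate. AT5G32598 has at least 185.5 counts in each *3h1* library and at most 19.8 in wt.

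The sequence at the annotated starts of 3 loci past both thresholds, the 2 that rose and the 1 that fell with the smallest p, is shown next, as 250 bases before and 50 bases after the start (TAIR10.1), because these pseudogenes carry no product name. AT5G32598 is at chr5:12244756-12245055 on the plus strand, AT5G34790 at chr5:12965830-12966129 on the plus strand and AT5G33386 at chr5:12637322-12637621 on the minus strand. Capitals mark TATAAA, the core of the TATA box, or CACGTG, the G-box, on either strand.
AT5G32598: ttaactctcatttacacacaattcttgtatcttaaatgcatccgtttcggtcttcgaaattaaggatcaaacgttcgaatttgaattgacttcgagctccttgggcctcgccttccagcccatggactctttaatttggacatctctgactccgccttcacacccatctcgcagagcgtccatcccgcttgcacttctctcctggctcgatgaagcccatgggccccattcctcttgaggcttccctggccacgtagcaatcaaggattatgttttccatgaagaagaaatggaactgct
AT5G34790: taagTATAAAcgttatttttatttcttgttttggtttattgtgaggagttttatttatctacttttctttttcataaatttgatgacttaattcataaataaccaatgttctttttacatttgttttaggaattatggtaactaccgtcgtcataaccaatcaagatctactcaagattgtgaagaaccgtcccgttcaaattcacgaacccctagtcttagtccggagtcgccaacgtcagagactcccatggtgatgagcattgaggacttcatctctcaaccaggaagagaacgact
AT5G33386: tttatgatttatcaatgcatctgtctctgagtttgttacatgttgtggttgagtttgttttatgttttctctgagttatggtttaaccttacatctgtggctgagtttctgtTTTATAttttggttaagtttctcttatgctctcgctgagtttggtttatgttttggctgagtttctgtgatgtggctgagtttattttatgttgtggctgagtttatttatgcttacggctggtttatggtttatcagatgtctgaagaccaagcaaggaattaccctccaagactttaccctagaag

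The window of AT5G32598 held neither motif, and the other windows shown each held TATAAA once. TATAAA was present in 49.6% of the 26510 windows of this length in the genome, in 51.0% of those of the protein-coding loci of the region and in 30.1% of those of its pseudogenes. CACGTG was present in 7.45, 3.398 and 1.56% of these windows. Of the 11 loci that rose 5 held TATAAA and 0 held CACGTG, and of the 3 that fell 1 and 0 did. The annotated start of a pseudogene is not a mapped transcription start, so these letters describe the annotation only.

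AT5G34790 had the next smallest p. It is a pseudogene of 2076 bases at chr5:12966080-12968155 on the plus strand. It had 5, 9 and 7 counts in wt and 49.8, 28.7 and 39.2 in *3h1*, without overlap, a log2 fold change of 2.11 ± 0.38 (SE), which passed only before adjustment (edgeR, adjusted p = 0.170). With DESeq2 this locus also passed after adjustment, which brought the number of such loci to 2.

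For several of the other pseudogenes that rose, *3h1* replicate 2 differed from the other mutant libraries. All 11 loci that rose had both of these libraries above every wt library, while *3h1* replicate 2 was above every wt library for 5 of them. AT5G33624 had 29, 14 and 18 counts in wt and 132, 22 and 96.7 in *3h1* (log2 fold change 1.68). AT5G32060 had 9.37, 10.8 and 7.24 counts in wt and 36.9, 7.51 and 53.8 in *3h1* (1.47). There *3h1* replicate 2 was within the wt range in counts, but below every wt library in CPM. AT5G35602 had 13.2, 11 and 8 counts in wt and 45, 7.04 and 49.98 in *3h1* (1.29), where *3h1* replicate 2 was lowest of all. AT5G35606, 6.74 kb further on, had 14, 7 and 8.93 counts in wt and 34, 10 and 48.2 in *3h1* (1.26). AT5G35334 had 6, 5 and 10 counts in wt and 17, 10 and 28 in *3h1* (1.03). AT5G35334 was close to the threshold and lost its call in 10 of 15 alternatives, DESeq2 and limma voom among them. AT5G32060 and AT5G35602 each lost theirs in 6 of 15 and changed sign in 1 more. For AT5G35606 the call was lost in 4 of 15, with a change of sign in 1 more. In limma voom all 3 of these also lost their call. With *3h1* replicate 2 as the only mutant library, the log2 fold change was 0.04 for AT5G33624, -0.29 for AT5G32060, -0.70 for AT5G35602, -0.08 for AT5G35606 and 0.40 for AT5G35334.

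Beside AT5G32598 and AT5G34790, 3 loci that rose were higher in every mutant library than in every wt library, in all 9 pairs. AT5G28935 had 6, 5 and 10 counts in wt and 31, 11.05 and 37 in *3h1* (log2 fold change 1.53). AT5G33306 had 9.23, 9.86 and 11.3 counts in wt and 26.9, 17.6 and 36.3 in *3h1* (1.07). AT5G32593, which lies 9.47 kb before AT5G32598, had 15.8, 11 and 3 counts in wt and 24, 20 and 49.5 in *3h1* (1.29). With *3h1* replicate 2 as the only mutant library the log2 fold change was 0.54 for AT5G28935, 0.73 for AT5G33306 and 0.91 for AT5G32593. Their calls were lost in 1, 3 and 4 of 15 alternatives. Order of this kind was common in the table, since 7.60% of all tested genes were higher in all 9 pairs and 8.12% of the tested loci of the region were.

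The loci that fell were also pseudogenes. AT5G33386, at chr5:12635785-12637371 on the minus strand, had 328, 200 and 118 counts in wt and 56, 143 and 60.8 in *3h1*, with a log2 fold change of -1.56 ± 0.41 (SE, edgeR, adjusted p = 0.295). AT5G33383 had 90, 37 and 17.9 counts in wt and 9.87, 23 and 17.4 in *3h1* (-1.77), and 63.5% of its 100-base words were unique. AT5G34834 had 141.6, 76 and 39 counts in wt and 36, 51 and 62.2 in *3h1* (-1.07), and lost its call in 6 of 16 alternatives. The genotypes overlapped at each of these loci, and wt replicate 3 was the lowest wt library each time.

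**Figure D4:**
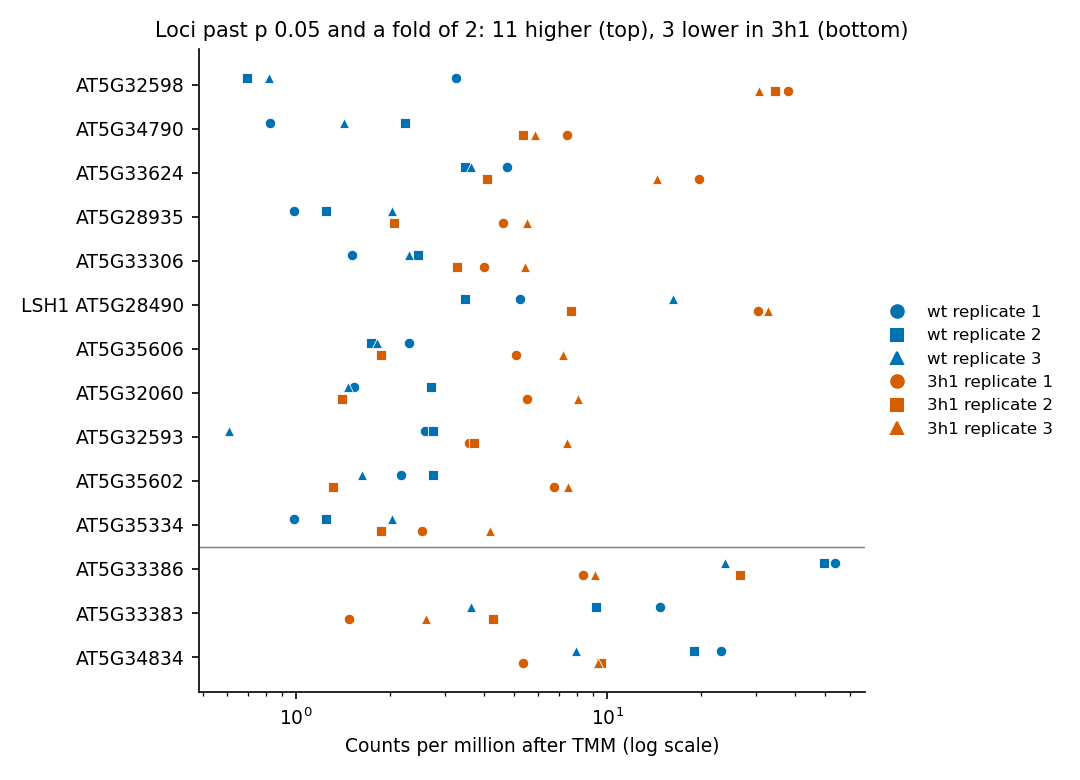
CPM after TMM normalization, on a log axis, of the 11 loci that rose (top) and the 3 that fell (bottom). Points are single libraries of wt (blue) and *3h1* (orange), with the shape giving the replicate. AT5G32598 separates the genotypes most widely, at 0.696 to 3.26 CPM in wt and 30.7 to 38.0 in *3h1*, and the 3 loci that fell overlap between the genotypes.

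The pseudogenes past the thresholds had between 3 and 178 other alignments of at least 200 bases in the genome, and 5 of the 13 had 6 or fewer. Segments of a single copy can count as several alignments. AT5G32598 had 46 other alignments, on all 5 chromosomes, which covered 97.2% of it. Its best match was 84.9% identical over 3007 bases at chr4:2004628-2007593. AT5G34790 had 4 other alignments that covered 66.1% of it, with 91.1% identity over 857 bases at best. AT5G33386 and AT5G33624 had 178 and 88 further alignments. The closest copy was that of AT5G33383, which was 98.0% identical over 2172 bases to a place at chr5:12632385-12634555, between AT5G33383 and AT5G33386.

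Direct repeats were searched for only within 15 kb of the loci past both thresholds, so their share among other loci is not known. Around 5 of the loci that rose, a direct repeat flanked the annotated locus, the arrangement in which long terminal repeats flank a retrotransposon. Most pairs did not adjoin the locus on both sides. A repeat lay 3192 bases before AT5G33624, and 5291, 4622 and 2522 bases after AT5G33306, AT5G32060 and AT5G35334. The repeats were 346 bases at AT5G33624, 499 at AT5G33306, 502 at AT5G32060, 548 at AT5G32593 and 1675 at AT5G35334, with an identity between the members of a pair of 93.6 to 95.9%. At AT5G32593 they lay 67 bases before and 347 bases after the locus, and the best-matching stretch of 120 bases near their start is shown because this locus was higher in all 9 pairs. They lie at chr5:12232116-12232235 and chr5:12236063-12236182 on the plus strand, and capitals mark the 5 bases at which they differ.
AT5G32593 repeat before: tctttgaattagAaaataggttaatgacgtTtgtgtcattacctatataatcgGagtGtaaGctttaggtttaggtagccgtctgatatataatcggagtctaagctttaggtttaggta
AT5G32593 repeat after: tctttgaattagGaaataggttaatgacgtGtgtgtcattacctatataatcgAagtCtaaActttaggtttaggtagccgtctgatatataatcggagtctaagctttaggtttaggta

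Protein-coding genes of the region differed little. Of the 115 tested, 1 rose by the thresholds above and 0 fell, with a median log2 fold change of 0.03. Of the 15786 other nuclear protein-coding genes tested 2.22% rose and 0.380% fell, with a median of 0.0046. The gene that rose was LSH1 (AT5G28490), at chr5:10454388-10455681 on the minus strand, a gene of the ALOG family whose name, LIGHT-DEPENDENT SHORT HYPOCOTYLS, refers to seedling growth in light. LSH1 had 32, 14 and 80 counts in wt and 205, 41 and 220 in *3h1*, with a log2 fold change of 1.51 ± 0.55 (SE, edgeR, adjusted p = 0.402). *3h1* replicate 2 lay below wt replicate 3, and with *3h1* replicate 2 as the only mutant library the log2 fold change was -0.13. LSH1 lost its call in 5 of 16 alternatives and changed sign in 1 more. No other alignment of at least 200 bases was found for LSH1.

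At an unadjusted p under 0.05 without regard to size, 17 loci were higher and 8 lower in *3h1*, which is 8.63 and 4.06% of those tested against 5.33 and 4.17% of all tested genes. Of these, 5 and 3 were protein-coding, from 115 tested, beside 789 and 642 of the 15786 other nuclear protein-coding genes tested. The smallest p among the loci with a change of less than 2-fold was that of AT5G28450, which encodes a protein of the chlorophyll a/b-binding family. AT5G28450 had 295, 239 and 297 counts in wt and 185, 152 and 263 in *3h1*, a log2 fold change of -0.82 ± 0.17 (SE, edgeR, adjusted p = 0.217), and in CPM every mutant library was below every wt library. BIP1 (AT5G28540), an HSP70 chaperone of the endoplasmic reticulum, had 598, 367 and 443 counts in wt and 903, 707 and 770 in *3h1*. Its log2 fold change was 0.45 ± 0.14 (SE, edgeR, adjusted p = 0.335), and in CPM it was higher in all 9 pairs. PAP26 (AT5G34850), a purple acid phosphatase, had 261, 177 and 208 counts in wt and 221, 189 and 210 in *3h1*, with a log2 fold change of -0.37 (edgeR, adjusted p = 0.393). AT5G35450, a disease resistance gene of the CC-NBS-LRR class, had 51.8, 26.9 and 47 counts in wt and 86.1, 71.5 and 74.4 in *3h1*, with a log2 fold change of 0.57 (edgeR, adjusted p = 0.396). The other loci in this class were AT5G33441, AT5G32513, FRS10 and AT5G36740 with higher and AT5G35970, AT5G35777 and AT5G33050 with lower values, and their log2 fold changes ranged from -0.56 to 0.94.

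Genes of known function were then read by group, beside the 5.33% of all tested genes that were higher and the 4.17% that were lower at p under 0.05. Of the 5 chromatin and centromere genes 4 were tested and 0 passed at p under 0.05. MBD02 (AT5G35330), a methyl-CpG-binding domain protein, had 52.2, 31 and 34 counts in wt and 39, 29 and 38 in *3h1* (edgeR, log2 fold change -0.45, adjusted p = 0.556). MIS12 (AT5G35520), a kinetochore protein, had 26, 14 and 13 counts in wt and 33, 13 and 61.9 in *3h1* (edgeR, 0.68, adjusted p = 0.665), with the high value in a single library. The histone deacetylase gene HDA7 had 2 or 3 counts in each library and was not tested.

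The 11 plastid and photorespiration genes were all tested, and 0 passed at p under 0.05. Their log2 fold changes lay between -0.29 for CCB3, which takes part in assembly of the cytochrome b6f complex, and 0.13. GS2 (AT5G35630), the plastid glutamine synthetase that reassimilates photorespiratory ammonium, had 2649, 1864 and 2361 counts in wt and 2513, 2606 and 2509 in *3h1*. Among the 7 transcription factor genes 5 were tested and 2 were higher, LSH1 and FRS10. FRS10 (AT5G28530), a FAR1-related protein, had 35, 14 and 23 counts in wt and 52.7, 37.03 and 44.9 in *3h1* (edgeR, log2 fold change 0.61, adjusted p = 0.485). The 5 translation and protein folding genes included 1 that was higher, BIP1, and the 4 tested of the 6 signalling genes included 0, with PHYC (AT5G35840), a phytochrome, at -0.23 (edgeR, adjusted p = 0.620). The triterpene genes CYP716A1, CYP716A2 and PEN3 had at most 12 counts in any library and were not tested.

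**Figure D5:**
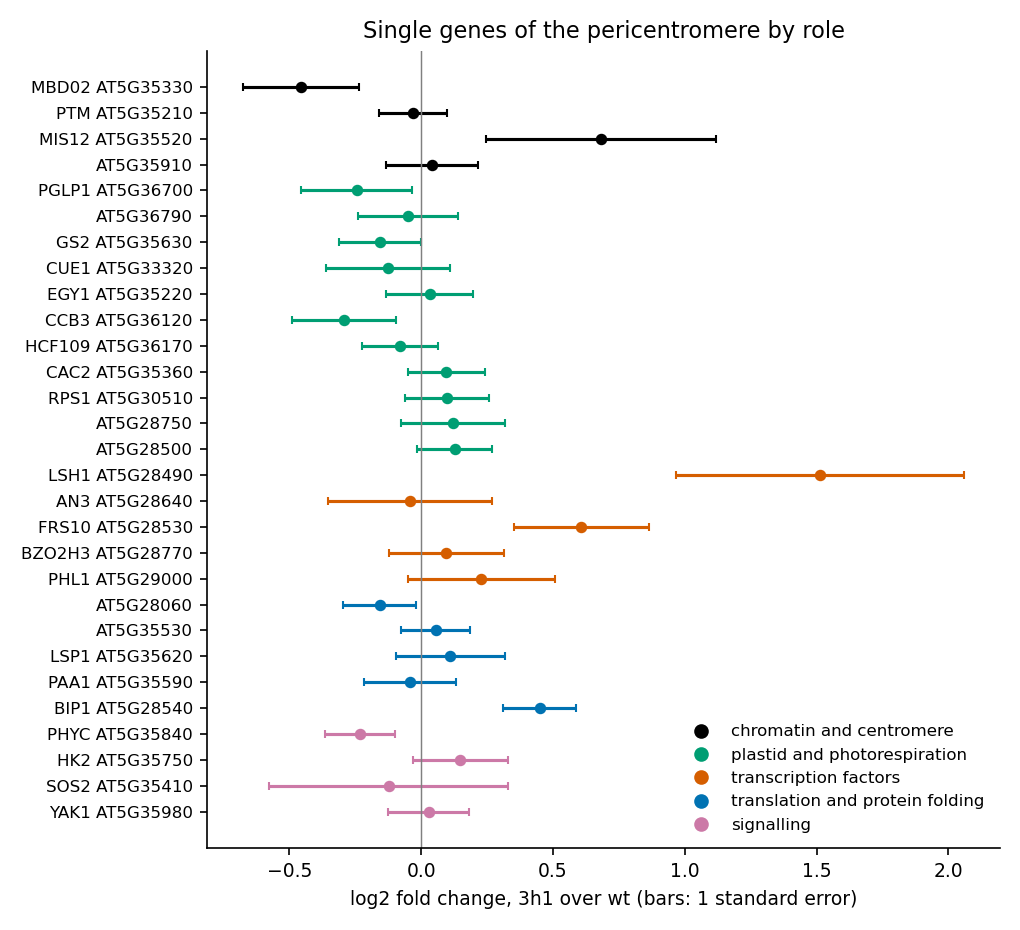
Log2 fold changes of *3h1* over wt for the tested genes of the functional groups (colours), with bars of 1 SE on each side from the edgeR fit. LSH1 stands highest at 1.51, and the 11 plastid and photorespiration genes lie between -0.29 and 0.13.

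Levels of different loci were compared per unit of length. As RPKM, the count divided by exon length and by the total count of the library, AT5G36210 had a mean level of 384 ± 114 (SD, n = 3) in wt and 433 ± 141 (SD, n = 3) in *3h1*. GS2 followed with 201 ± 13.2 and 211 ± 27.7, and RPS1 (AT5G30510), the plastid ribosomal protein S1, with 101 ± 14.8 and 125 ± 20.1. The total includes organelle counts and was not TMM-normalized, so RPKM ranks loci here and does not compare the genotypes. The fitted log2 fold changes were -0.09 for AT5G36210, -0.16 for GS2 and 0.10 for RPS1. AT5G28450 had a level of 81.6 ± 3.34 in wt and 54.5 ± 12.0 in *3h1*, and BIP1 had 30.3 ± 4.56 and 48.2 ± 3.60. The 5 further loci among the first 10, AT5G31909 (a transcribed pseudogene), AT5G28840 (a GDP-mannose epimerase gene), AT5G28060 and AT5G35530 (genes for ribosomal proteins S24e and S3) and AT5G28500 (related to a rubisco assembly factor), had wt means from 26.2 to 62.1 RPKM, and their log2 fold changes did not pass the test.

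A duplication near the distal end of the region shows how repeated sequence limits what can be said of a single gene. The segments chr5:14390258-14449563 and chr5:14449557-14508864 aligned over 59.3 kb with 0 mismatches and 2 single-base gaps, and hold 13 of the loci. PGLP1 (AT5G36700), the phosphoglycolate phosphatase that starts photorespiratory carbon recycling, has an identical partner there, AT5G36790. The middle 100 bases of AT5G36700 (minus strand, chr5:14422896-14422995) are shown because the same run recurs at chr5:14482196-14482295 and a read within it has no single origin. No base is capitalised.
AT5G36700 middle: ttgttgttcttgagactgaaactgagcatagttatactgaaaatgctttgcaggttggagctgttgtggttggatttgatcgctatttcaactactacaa

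Sums over such pairs do not depend on how reads were divided within the pair. AT5G36700 took from 47.4 to 54.5% of the counts of its pair, and the sums were 366, 257 and 257 counts in wt and 323, 377 and 275 in *3h1* (exact permutation test on CPM, p = 0.6). The pair AT5G36670 and AT5G36740, which encodes an acetyltransferase-like protein with a PHD-type zinc finger, had 30, 16 and 25 counts in wt and 58, 31 and 66 in *3h1*. In CPM these sums were 4.93, 3.99 and 5.07 in wt and 8.65, 5.79 and 9.87 in *3h1*, without overlap (exact permutation test, p = 0.1, the smallest possible). A further pair outside the duplication, AT5G28320 and AT5G28400, which are 99.67% identical, summed to 18.6, 13.8 and 16.7 CPM in wt and 20.1, 20.1 and 22.1 in *3h1* (exact permutation test, p = 0.1). Adjusted over the 9 pairs compared, none of these p values could fall below 0.1.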

How the data were processed

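The deposited expected counts (estimated reads per gene before normalization) were made by the authors from ribosomal RNA-depleted total RNA sequenced on an Ion Proton. The authors removed ribosomal and ERCC reads, aligned to TAIR10 with TMAP 5.0.13 and then BBMap, kept all best-scoring mappings, and quantified ARAPORT11 genes with the expectation-maximization step of Partek Flow. Strand use in counting is not given in the sources used here, so overlapping genes are uncertain (40 loci). A table of the authors' own fold changes and p-values was not used.

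Counts were rounded, filtered (filterByExpr), TMM-normalized and tested with edgeR 4.0.16 in R 4.3.3 over all genes. Benjamini-Hochberg adjustment covered the 17453 genes tested. RPKM used exon length. Alignments used blastn 2.17.0, and the procedure was tested on simulated data. The loci and gene lists were chosen with earlier results of these data known. Named genes are loci past the adjusted or the fold threshold, the 10 of highest mean RPKM, and fixed functional lists. Loci with p under 0.05 and a smaller fold were named after their values were seen. Alternatives comprised other normalizations, filters and tests, unrounded counts, a replicate block and each library left out.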

Additional observations from a re-analysis of the deposited data

How the results depend on the processing

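AT5G32598 kept an adjusted p under 0.05 in all 15 alternatives that tested it, and the largest was 0.0102. Its log2 fold change ranged from 3.93 to 5.42 (without wt replicate 1). The number of loci past that threshold was 2 with DESeq2 and 0 with at least 10 counts required in every library. With that requirement AT5G32598 was not tested, and 2 loci rose, 1.65% against 0.922% of all tested genes. With no filter on low counts 631 loci were tested, and 62 rose, 9.83% against 4.33% of all tested genes. The median log2 fold change was then 0.5365, against 0.0695 over all tested genes. Leaving out 1 library at a time, from 1 to 4 loci passed after adjustment (4 without *3h1* replicate 2), from 4 to 56 rose and from 2 to 6 fell. The share that rose was 2.02 to 22%, against 1.55 to 6.66% of all tested genes. From 198 to 257 loci were tested in these fits, and 0.51 to 0.709% of all tested genes fell. The median was 0.048 to 0.36. The difference in the share of nuclear counts was -0.00963 (without *3h1* replicate 3) to 0.124 percentage points. That in loci with at least 3 counts was 82.3 to 191.8. An alternative chosen after seeing the data left out *3h1* replicates 1 and 3, and its single mutant library was assumed to vary like the others. It gave a median of -0.0852, against -0.021 over all tested genes, and differences of -0.0452 percentage points and -13.67 loci.

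Over 853 values of 54 named genes, 760 kept their direction and their side of the threshold, 48 no longer passed, 2 newly passed and 43 changed sign. The log2 fold change took the opposite sign without *3h1* replicates 1 and 3 for AT5G28490 (-0.13), AT5G32060 (-0.29), AT5G35602 (-0.70), AT5G35606 (-0.076), AT5G35520 (-0.51), AT5G36700 (0.21), AT5G36790 (0.33), AT5G35630 (0.088), AT5G36170 (0.0041), AT5G35590 (0.079) and AT5G31909 (0.20). With single libraries left out it ranged across 0 for AT5G35910 (-0.093 to 0.13), AT5G33320 (-0.25 to 0.069), AT5G35220 (-0.12 to 0.14), AT5G28640 (-0.32 to 0.22), AT5G28840 (-0.16 to 0.15), AT5G36790 (-0.30 to 0.10), AT5G35620 (-0.038 to 0.34), AT5G35750 (-0.0050 to 0.34), AT5G35980 (-0.094 to 0.085), AT5G36210 (-0.34 to 0.24), AT5G35590 (-0.19 to 0.034), AT5G35410 (-0.53 to 0.15), AT5G28750 (-0.068 to 0.30), AT5G35360 (-0.041 to 0.20), AT5G30510 (-0.068 to 0.22) and AT5G28770 (-0.17 to 0.21). It was also opposite without a filter for AT5G35910 (-0.010), AT5G35220 (-0.014), AT5G35980 (-0.023) and AT5G28840 (-0.021), and with at least 10 counts for AT5G35210 (0.0082). The cause was not tested.

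Same-numbered libraries did not deviate together (correlations of -0.0504, -0.144 and -0.111), so the numbers are not taken to pair the samples. With the replicate block 9 loci rose, 4.57% of those tested against 2.26% of all tested genes. Of the 197 tested, 2 fell, against 0.338% of all tested genes, and 1 passed after adjustment. The difference in share stayed at 0.0676 (exact sign-flip permutation test, p = 0.75, where 0.25 is the smallest possible). The difference in loci with at least 3 counts stayed at 123.3 (exact sign-flip permutation test, p = 0.25). No library correlated best with its own number. In the fit with a filter 436 of the 633 loci were not tested for lack of counts. Of the 62 that rose without it, 10 were among the 11 reported.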
